A study of Homo sapiens with 20 samples.

Results

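The ligands, receptors and latent binding proteins of the TGFβ pathway were followed in an RNA-seq series on a pair of human carcinoma lines, Panc1 from a pancreatic ductal tumour and A549 from a lung adenocarcinoma. The set held 10 genes, chosen by name with earlier results of these data known: TGFB1, TGFB2, TGFB3, TGFBR1, TGFBR2, TGFBR3, LTBP1, LTBP2, LTBP3 and BAMBI. All 10 had a row in the count tables, among 23368 genes, and all 10 passed the filter on low counts in each line. The groups of each line were an siRNA against the transcription factor KLF10 with TGFβ (siKLF10+TGFβ), TGFβ, siKLF10 alone, and a control siRNA (siCont). The label of the TGFβ group names no siRNA, so an effect of transfection cannot be told apart from that of TGFβ in TGFβ over siCont. Neither can it be told apart from that of siKLF10 in siKLF10+TGFβ over TGFβ. The same limit holds for the interaction and for line differences that use these comparisons. The labels name no other siRNA against KLF10. Effects of the siRNA on other transcripts therefore cannot be told apart from that of lower KLF10. TGFβ protein was given at 5 ng/ml for 72 h, and the labels do not name the isoform. Panc1 had 3 libraries in each group and A549 had 2, lettered A to C, which makes 20 libraries in 8 groups. Whether the libraries of a group came from separate cultures is not stated, so p-values cover only how far these libraries differ, a spread that may be technical. A tag in the labels describes both lines as immortalized by the SV40 large T antigen, while the origins given above are tumours. The tag was not checked here.

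TGFβ is secreted as a latent dimer that stays bound to its own propeptide. Latent binding proteins (LTBPs) tether most such complexes to the extracellular matrix, from which integrins, proteases and other factors release the active ligand. The active dimer brings together the type II receptor (TGFBR2) and the type I receptor (TGFBR1), whose kinase phosphorylates SMAD2 and SMAD3. The co-receptor betaglycan (TGFBR3) presents ligand, TGFβ2 above all, to the signalling receptors and can also be shed as a ligand trap. BAMBI resembles a type I receptor without a kinase domain and dampens signalling. KLF10 was first described as a gene that TGFβ induces early, and its zinc fingers bind GC-rich DNA.

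Gene counts per library ran between 11152625 and 15571367 in Panc1 and between 6846761 and 19070551 in A549. Levels are in CPM, in which each gene count is scaled to a common total of gene counts per library, with TMM factors (trimmed mean of M values) set within each line. The smallest level taken as present, 3 counts, was 0.193 to 0.269 CPM in Panc1 libraries and 0.157 to 0.438 CPM in A549 libraries. Fold changes are log2 values ± SE from edgeR's quasi-likelihood test, and every adjusted p is from that test with Benjamini-Hochberg adjustment over all genes tested. A gene was called at an adjusted p under 0.05. KLF10, the siRNA target, was 101, 101 and 104 CPM in Panc1 siKLF10+TGFβ libraries A, B and C, 192, 187 and 206 CPM with TGFβ, 83.0, 80.7 and 77.5 CPM with siKLF10 and 140.1, 137 and 130.2 CPM with siCont. In A549 it was 151 and 142 CPM in the libraries labelled siKLF10+TGFβ, 179 and 179 CPM with TGFβ, 102 and 109 CPM in those labelled siKLF10 and 110.2 and 107 CPM with siCont. In Panc1 it was lower with siKLF10, both without TGFβ (log2 fold change −0.76 ± 0.0603, adjusted p = 2.58e-09) and with it (log2 fold change −0.94 ± 0.0593, adjusted p = 4.97e-11). KLF10 was not called lower in the A549 libraries labelled siKLF10 than in siCont (log2 fold change −0.05 ± 0.0802, adjusted p = 0.743). Under TGFβ it was lower in the A549 libraries labelled siKLF10+TGFβ (log2 fold change −0.29 ± 0.0779, adjusted p = 0.00776), but the adjusted p was 0.0623 when library TGFβ A was left out and 0.0571 when B was. The A549 groups are therefore named by their labels, and an A549 siKLF10 comparison is one of libraries so labelled.

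Keratins and adhesion molecules of epithelia were present in both lines, some at low levels. KRT19 was 0.402 to 4.55 CPM over the A549 libraries, and EPCAM was 2.56 to 3.05 CPM with TGFβ in Panc1. CDH1, EPCAM, KRT8, KRT18 and KRT19 summed to 699 to 829 CPM with siKLF10+TGFβ, 433 to 458 CPM with TGFβ and 847 to 973 CPM with siCont in Panc1, and to 1807 to 2232 CPM in A549 libraries labelled siKLF10+TGFβ, 1627 to 1799 CPM with TGFβ and 4574 to 4739 CPM with siCont in A549. KRT8 and KRT18 made most of each sum. In Panc1 siKLF10+TGFβ over TGFβ, 2 of the 5 were called higher and 2 lower. KRT8 was 447 to 568 CPM with siKLF10+TGFβ and 245 to 259 CPM with TGFβ there, and KRT18 209 to 225 and 121 to 139 CPM. CDH1 was 1.56 to 2.69 CPM with siKLF10+TGFβ and 3.13 to 4.43 CPM with TGFβ, and KRT19 36.1 to 47.7 and 57.3 to 59.6 CPM. Defining markers of mature pancreas (PRSS1, CPA1) and lung (summed level of 5 lung markers at most 2.51 CPM) were at or near 0, while KRT7 made nearly all of a pancreatic list sum of 10.5 to 26.6 CPM in Panc1 siCont and 2187 to 2196 CPM in A549 siCont. Of 6 fibroblast markers, 4 were tested in each line, and 3 were called higher with TGFβ in Panc1 and 4 in A549. They summed to 28.0 to 31.8 CPM with TGFβ and 12.1 to 13.7 CPM with siCont in Panc1, and to 9.94 to 12.1 CPM with TGFβ and 1.22 to 1.52 CPM with siCont in A549. Among them the collagen gene COL1A2 was 0 to 0.145 CPM in Panc1 TGFβ libraries and 0 to 0.201 CPM in A549 TGFβ libraries, at or near 0. The part of these markers in the results below was not tested. The endothelial markers summed to at most 0.65 CPM and the leukocyte markers PTPRC and CD3E to at most 0.262 CPM in any library, while CD68, a lysosomal gene, was 70.6 to 95.5 CPM with siKLF10 and 262 to 283 CPM with siCont in Panc1. The basal keratin KRT5 set Panc1 siCont apart, with 21.8 to 60.6 CPM there against 5.58 to 9.52 CPM with TGFβ, and siCont A held the highest value. Of the other basal markers, KRT14 was 0 to 0.0736 CPM and TP63 1.80 to 5.37 CPM in Panc1 siCont. EPCAM, at 3.94 to 12.2 CPM, and KRT7, at 10.5 to 26.6 CPM, also spread widely over the Panc1 siCont libraries. Among genes that overlap a member on the annotation (GENCODE 29), HNRNPUL1 had a row of its own, and it shares 215 exon bases with TGFB1 on the other strand. TGFB2-OT1, without a row, shares 1371 exon bases with TGFB2 on the same strand. Other genes without a row overlap TGFB3, LTBP1 and LTBP2 on the other strand. No source used here gives the strand setting of the counts.

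In siCont the order of the members was led by the type II receptor in both lines. Levels between genes are compared here per kb of merged exons (GENCODE 29 lengths), as CPM per kb, mean ± SD. In Panc1 siCont, TGFBR2 stood at 65.8 ± 1.86, followed by TGFB2 at 29.2 ± 1.41, LTBP2 at 25.8 ± 1.65 and TGFB1 at 25.3 ± 0.573 CPM per kb. TGFBR1 at 10.6 ± 0.548, LTBP1 at 10.6 ± 0.266 and LTBP3 at 9.02 ± 0.533 CPM per kb formed a middle tier. TGFBR3 at 1.60 ± 0.106, TGFB3 at 1.07 ± 0.127 and BAMBI at 0.763 ± 0.358 CPM per kb were the lowest. Among neighbours in that order, the library ranges overlapped for LTBP2 and TGFB1, for TGFBR1 and LTBP1, and for TGFB3 and BAMBI. In A549 siCont the order was TGFBR2 at 71.3 ± 0.469, TGFB1 at 40.0 ± 1.996, LTBP3 at 23.7 ± 0.129, TGFB2 at 18.4 ± 0.706, BAMBI at 16.8 ± 0.733, TGFBR1 at 9.73 ± 0.176, LTBP1 at 6.13 ± 0.155, TGFBR3 at 4.93 ± 0.448, LTBP2 at 3.62 ± 0.332 and TGFB3 at 1.06 ± 0.0187 CPM per kb, and no neighbouring ranges overlapped.

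The siCont libraries of both lines were set against each other in a joint fit of all 20 libraries, with CPM scaled over both lines. Of 10 members, 8 were called, 3 higher and 5 lower in Panc1, where 81.9% (higher 39.0%, lower 42.9%) of 15058 genes tested were called. LTBP2 measured 205, 225 and 233 CPM in Panc1 siCont A, B and C, against 33.9 and 29.8 CPM in A549 siCont A and B (log2 fold change 2.79 ± 0.0880, adjusted p = 2.22e-24). BAMBI measured 2.20, 1.02 and 1.07 CPM in Panc1 and 33.4 and 31.4 CPM in A549 (log2 fold change −4.50 ± 0.194, adjusted p = 1.34e-19), a 22.6-fold lower level in Panc1. LTBP2 and BAMBI thus lay at opposite ends of the line difference. TGFBR3 (log2 −1.66 ± 0.121), LTBP3 (−1.43 ± 0.0802) and TGFB1 (−0.70 ± 0.0978) were also lower in Panc1, and LTBP1 (0.76 ± 0.0819) and TGFB2 (0.63 ± 0.0748) higher. TGFBR2 was 302, 305 and 320.1 CPM in Panc1 and 342 and 345 CPM in A549 (log2 fold change −0.15 ± 0.0680, adjusted p = 0.0398). That call was lost without A549 siCont A or B, Panc1 siCont A or B, or Panc1 TGFβ A (adjusted p = 0.051 to 0.147) and without a filter on low counts (adjusted p = 0.401). The interval of the log2 difference was −0.09 to 0.28 for TGFBR1 and −0.45 to 0.41 for TGFB3 (95%), neither of which was called. Of reads placed in 1 gene, in none or ambiguously, the share in no gene was 33.6 to 36.9% in the Panc1 libraries, against 57.6 to 60.1% for A549, and its part in the line differences was not tested.

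TGFβ moved most of the set in both lines. In Panc1, 8 of 10 members were called with TGFβ against siCont, 6 higher and 2 lower, where 29.0% (higher 14.0%, lower 15.1%) of 13218 genes were called. In A549, 9 of 10 were called, 7 higher and 2 lower, where 47.7% (higher 24.2%, lower 23.5%) of 14124 genes were called. The median log2 change of the members was 0.44 in Panc1 and 0.63 in A549, with medians over all genes of 0.00 and −0.01. After siKLF10, TGFβ gave 8 calls in Panc1, 6 higher and 2 lower, where 45.0% (higher 22.6%, lower 22.3%) of genes were called. It gave 9 in A549 libraries labelled siKLF10, 7 higher and 2 lower, where 53.3% (higher 26.5%, lower 26.8%) were called. Without Panc1 siCont A, which stood apart in KRT5, 6 of 10 members were called in the Panc1 TGFβ comparison with siCont, and 3 for siKLF10 and 4 for the interaction, as many as with it. Fewer cells of one kind and less RNA per cell cannot be told apart in such bulk libraries.

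**Figure D1:**
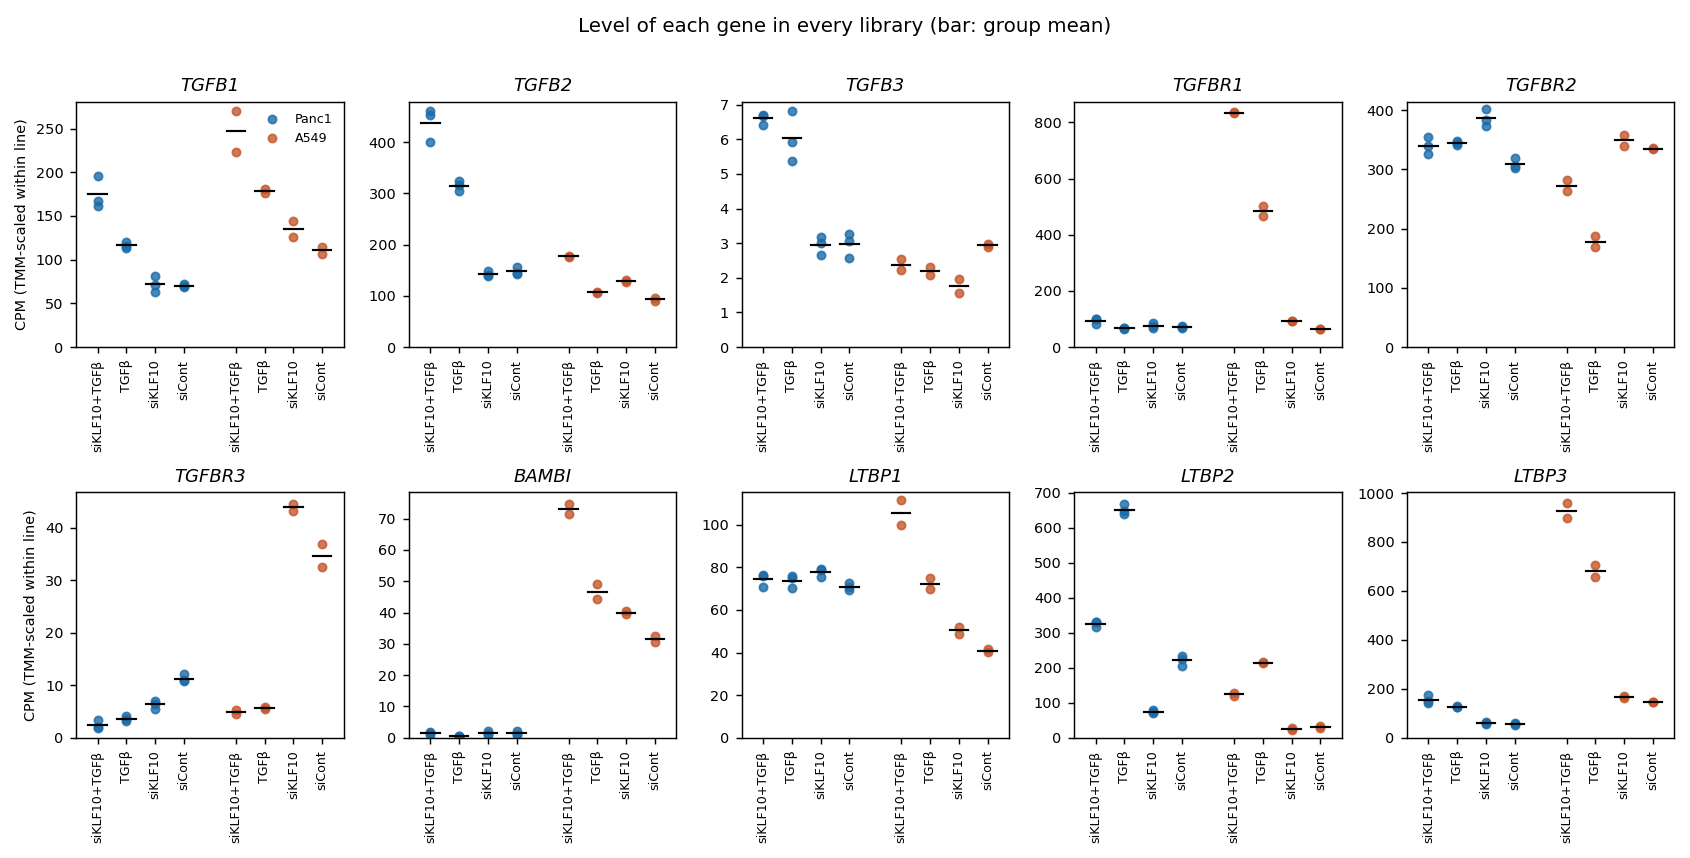
Level of each of the 10 genes in every library, in CPM scaled within each line, on linear axes that start at 0. Points are libraries, 3 per group in Panc1 (blue) and 2 in A549 (orange), and black bars are group means. TGFBR1 reaches 465 to 836 CPM in the A549 libraries with TGFβ and stays at 65.6 to 99.99 CPM in every Panc1 library with TGFβ, while the Panc1 points of BAMBI lie at or below 2.21 CPM.

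**Figure D2:**
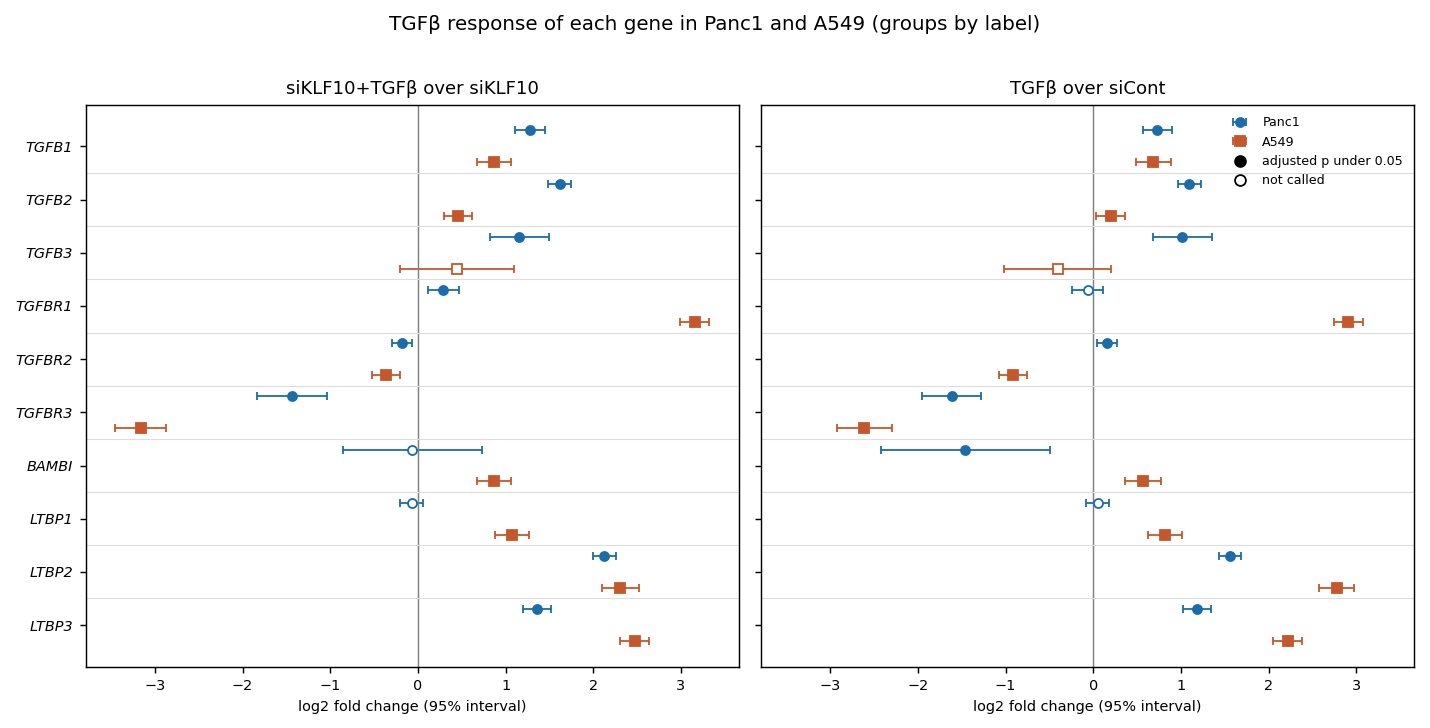
TGFβ response of each gene as a log2 fold change with its 95% interval, in siKLF10+TGFβ over siKLF10 (left, by label in A549) and TGFβ over siCont (right), in Panc1 (circles) and A549 (squares). Filled symbols are called, open symbols are not, and the widest gap between the lines is at TGFBR1 in both panels.

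Counted over the set, siKLF10 moved 3 of 10 members in Panc1 without TGFβ, 1 higher and 2 lower, where 35.6% (higher 17.3%, lower 18.3%) of 13218 genes were called, so the members' share was near the background. In siKLF10+TGFβ over TGFβ 7 of 10 were called, 5 higher and 2 lower, where 41.7% (higher 21.1%, lower 20.6%) of genes were called. The median log2 change of the members was 0.22 with TGFβ and 0.05 without it. The Panc1 interaction was called for 4 of 10 members, 3 positive and 1 negative, where 4.42% (higher 2.56%, lower 1.86%) of genes were called. In A549 the libraries labelled siKLF10 had 7 of 10 members called without TGFβ, 6 higher and 1 lower, where 19.5% (higher 9.57%, lower 9.96%) of 14124 genes were called. With DESeq2 that count was 2, the calls of TGFB2 and TGFBR1, and in edgeR it was 2 without siCont A, siCont B or siKLF10 A and 3 without siKLF10 B, TGFβ A or TGFβ B. Under TGFβ 8 of 10 were called in A549, 7 higher and 1 lower, where 28.3% (higher 14.4%, lower 13.9%) of genes were called. The A549 interaction was called for 2 of 10, 1 positive and 1 negative, and for 1 without any of those 6 libraries and 5 without siKLF10+TGFβ A, where 6.49% (higher 3.26%, lower 3.23%) of genes were called. KLF10 itself was not called lower in A549 without TGFβ, and the siKLF10 comparisons of a line share their control libraries with its TGFβ comparisons.

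**Figure D3:**
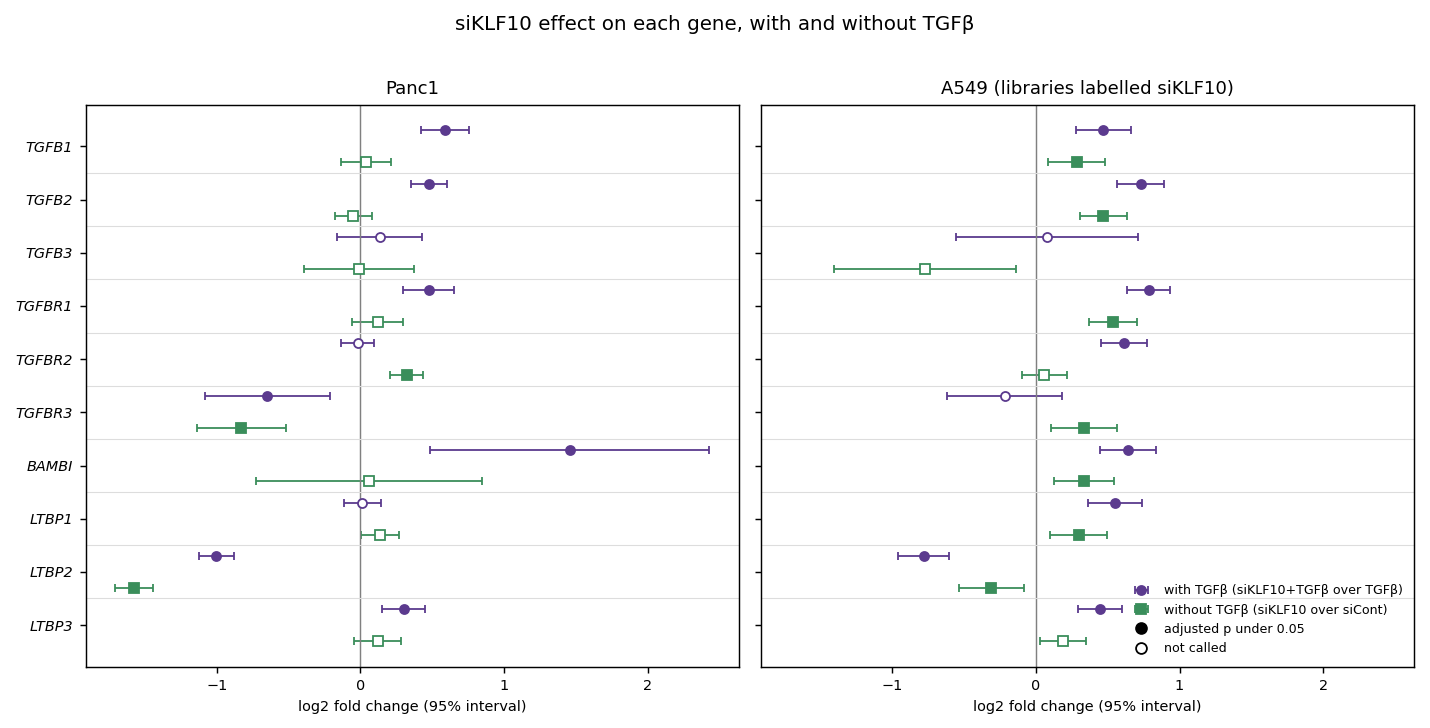
siKLF10 effect on each gene as a log2 fold change with its 95% interval, with TGFβ (circles, siKLF10+TGFβ over TGFβ) and without (squares, siKLF10 over siCont), in Panc1 (left) and in the A549 libraries labelled siKLF10 (right). Filled symbols are called and open ones are not, and LTBP2 lies left of 0 in all 4 comparisons while TGFB1, TGFB2 and TGFBR1 lie right of 0 wherever they are called.

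All 3 ligand genes rose with TGFβ in Panc1, and in A549 TGFB1 rose most. TGFB1, the most widely expressed of the ligands, was 113, 120.2 and 116 CPM in Panc1 TGFβ libraries, against 69.6, 68.5 and 71.6 CPM in siCont (log2 fold change 0.73 ± 0.0819, adjusted p = 2.42e-07). The lowest TGFβ library lay far above the highest siCont library. In A549 it was 176 and 181 CPM with TGFβ and 115 and 107 CPM with siCont (log2 fold change 0.69 ± 0.0943, adjusted p = 3.56e-06), again without overlap. The difference between the lines was 0.13 ± 0.138 on the log2 scale, with a 95% interval of −0.16 to 0.41 (adjusted p = 0.537).

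TGFB2, the ligand that depends most on betaglycan, rose further in Panc1. It measured 324, 304 and 316 CPM with TGFβ and 156, 143 and 144 CPM with siCont there (log2 fold change 1.09 ± 0.0629, adjusted p = 4e-12). In A549 it measured 108 and 105 CPM with TGFβ and 95.6 and 90.5 CPM with siCont (log2 fold change 0.20 ± 0.0800, adjusted p = 0.0467). The A549 libraries did not overlap, yet leaving out 1 library ended the call for TGFβ A (adjusted p = 0.207), TGFβ B (0.0974), siCont A (0.0784), siCont B (0.251) or siKLF10 B (0.0533), and also with gene count totals alone (0.2), with no filter (0.0933) and with DESeq2 (0.0772). The response was larger in Panc1, with a difference of 0.98 ± 0.105 on the log2 scale (adjusted p = 4.08e-09).

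TGFB3, the remaining ligand, which acts through the same receptors, was scarce in both lines. Panc1 held 94, 74 and 79 reads, or 6.83, 5.91 and 5.37 CPM, in the TGFβ libraries and 35, 39 and 49 reads, or 2.58, 3.07 and 3.26 CPM, in siCont (log2 fold change 1.02 ± 0.162, adjusted p = 3.4e-05). The A549 values were 2.31 and 2.08 CPM with TGFβ and 2.90 and 2.97 CPM with siCont, lower in both TGFβ libraries but not called (log2 fold change −0.40 ± 0.295, adjusted p = 0.274). The lines differed in this response (log2 difference 1.50 ± 0.316, adjusted p = 0.000357).

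In Panc1 TGFB1 and TGFB2 were higher with siKLF10+TGFβ than with TGFβ, and neither was called with siKLF10 against siCont. TGFB1 was 196, 167 and 162 CPM in siKLF10+TGFβ libraries, above every TGFβ library (log2 fold change 0.59 ± 0.0793, adjusted p = 3.93e-06). Without TGFβ it was 81.5, 63.1 and 71.3 CPM with siKLF10, a range that encloses the siCont values (log2 fold change 0.04 ± 0.0837, adjusted p = 0.754). TGFB2 was 400.3, 453 and 460.5 CPM with siKLF10+TGFβ (log2 fold change 0.48 ± 0.0613, adjusted p = 2.28e-06) and 140.4, 148 and 139 CPM with siKLF10 (log2 fold change −0.05 ± 0.0634, adjusted p = 0.589). The interaction (siKLF10+TGFβ over siKLF10, less TGFβ over siCont) was positive for TGFB1 (log2 0.55 ± 0.115, adjusted p = 0.00672) and TGFB2 (log2 0.52 ± 0.0882, adjusted p = 0.000951). TGFB3 was 6.72, 6.69 and 6.42 CPM with siKLF10+TGFβ and 2.65, 3.02 and 3.18 CPM with siKLF10, within the range of TGFβ and siCont, the groups they were set against, and was called in neither comparison (adjusted p = 0.484 and 0.982).

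In A549 the libraries labelled siKLF10 had more TGFB2 with and without TGFβ. TGFB2 was 177 and 178 CPM in the libraries labelled siKLF10+TGFβ, against the TGFβ values above (log2 fold change 0.73 ± 0.0785, adjusted p = 5.18e-07), and 127 and 131 CPM in those labelled siKLF10, against siCont (log2 fold change 0.47 ± 0.0790, adjusted p = 0.000211). TGFB1 was 224 and 271 CPM in the libraries labelled siKLF10+TGFβ (log2 fold change 0.47 ± 0.0922, adjusted p = 0.000622) and 144 and 125 CPM in those labelled siKLF10 (log2 fold change 0.28 ± 0.0947, adjusted p = 0.0386). The TGFB1 call without TGFβ was lost without siCont A or B, siKLF10 A, or TGFβ A or B (adjusted p = 0.0695 to 0.441). TGFB3 was 2.53 and 2.22 CPM in the libraries labelled siKLF10+TGFβ and 1.56 and 1.95 CPM in those labelled siKLF10, and was called in neither comparison. The siKLF10 effect on TGFB2 was smaller in Panc1 than in A549 without TGFβ (log2 difference −0.49 ± 0.105, adjusted p = 0.00104). Under TGFβ the line difference of TGFB2 was −0.29 ± 0.103 (adjusted p = 0.0423), and it was lost under 12 alternatives, among them both other scalings.

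The stretches before the transcript starts of TGFB1 and TGFB2 are shown because these ligand genes rose together under TGFβ and siKLF10 in Panc1 and yet have unlike sequence there. Each is the 250 bases before the start in RefSeq (GRCh38.p14), 5′ to 3′ on the gene's strand, TGFB1 at chr19:41353923-41354172 (minus strand) and TGFB2 at chr1:218345086-218345335 (plus strand). Capitals mark GC boxes (GGGCGG on either strand) in TGFB1 and SMAD half-sites (CAGAC on either strand) in TGFB2.
TGFB1: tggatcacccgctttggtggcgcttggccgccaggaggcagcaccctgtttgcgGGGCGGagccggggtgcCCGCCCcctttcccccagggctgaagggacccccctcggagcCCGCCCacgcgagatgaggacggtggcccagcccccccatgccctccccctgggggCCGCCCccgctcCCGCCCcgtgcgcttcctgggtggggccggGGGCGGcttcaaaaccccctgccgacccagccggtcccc
TGFB2: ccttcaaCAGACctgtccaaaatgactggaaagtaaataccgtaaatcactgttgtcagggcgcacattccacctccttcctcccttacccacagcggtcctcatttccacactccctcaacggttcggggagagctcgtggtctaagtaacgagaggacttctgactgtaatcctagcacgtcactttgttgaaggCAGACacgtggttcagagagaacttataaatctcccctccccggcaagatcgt
The TGFB1 stretch held 6 GC boxes and 0 half-sites at 76.8% G and C, and the TGFB2 stretch held 0 GC boxes and 2 half-sites at 50.4% G and C. Over 27305 RefSeq stretches of the same length, 42.3% held a GC box and 37.8% held a half-site. Among the 10 members 5 held a GC box and 5 held a half-site, and BAMBI, the member with both, had no overlap between them. CACCC boxes (CACCC on either strand), also searched for, were held by 5 of the 10 members and 53.7% of the stretches. AP-1 sites (TGACTCA on either strand) were held by 0 of the 10 and 4.16% of the stretches. For a gene with more than 1 start listed, only the first was read. TGFBR1 had 8 starts listed, LTBP1 had 3, and TGFB3, TGFBR2 and LTBP3 had 2 each. A match describes letters in this window and says nothing of binding.

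TGFBR1 rose with TGFβ in A549 and was not called in Panc1, and TGFBR2 fell in A549. TGFBR1, the type I kinase receptor, was 502 and 465 CPM in A549 TGFβ libraries A and B, against 63.5 and 65.2 CPM in siCont. That is a 7.52-fold rise (log2 fold change 2.91 ± 0.0798, adjusted p = 7.45e-18). In Panc1 it was 69.3, 65.6 and 67.8 CPM with TGFβ and 70.9, 66.6 and 73.8 CPM with siCont, in overlapping ranges and with no call (log2 fold change −0.06 ± 0.0856, adjusted p = 0.65). The 95% interval of the Panc1 log2 change was −0.24 to 0.12. The difference between the lines was −2.89 ± 0.127 on the log2 scale (adjusted p = 1.05e-18), the widest of the 10 members. It was also higher with TGFβ among the A549 libraries of the siKLF10 label, at 834 and 836 CPM in those labelled siKLF10+TGFβ against 92.6 and 94.4 CPM in those labelled siKLF10 (log2 fold change 3.16 ± 0.0799, adjusted p = 2.03e-18).

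TGFBR2, the type II receptor that binds ligand first, moved the other way in A549. It fell to 187 and 169 CPM in A549 TGFβ libraries, against 334 and 337 CPM in siCont (log2 fold change −0.91 ± 0.0779, adjusted p = 1.96e-09). In Panc1 it was 349, 345 and 341 CPM with TGFβ and 303, 306 and 319.6 CPM with siCont (log2 fold change 0.15 ± 0.0551, adjusted p = 0.0383), a 1.11-fold difference. This Panc1 call ended on leaving out TGFβ A (0.122), TGFβ B (0.0972), TGFβ C (0.0684), siCont A (0.12), siCont B (0.121) or siKLF10+TGFβ B (adjusted p = 0.0563). It also ended with gene count totals alone (0.0901), with no filter (0.0563) and with the letter as a replicate block (0.052). The TGFβ effects differed between the lines (log2 difference 1.15 ± 0.0980, adjusted p = 2.31e-11).

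TGFBR3, the co-receptor betaglycan, fell with TGFβ in both lines. A549 TGFβ libraries held 5.83 and 5.49 CPM, against 36.9 and 32.5 CPM in siCont (log2 fold change −2.61 ± 0.149, adjusted p = 2.29e-12). Panc1 TGFβ libraries held 3.63, 3.20 and 4.15 CPM, against 12.1, 10.9 and 10.8 CPM in siCont (log2 fold change −1.62 ± 0.162, adjusted p = 4.36e-08). The fall was 6.10-fold in A549 and 3.06-fold in Panc1, and the lines differed by 1.07 ± 0.237 on the log2 scale (adjusted p = 0.000593).

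With siKLF10 the receptors differed between the lines in part. Line differences kept their calls under every alternative for TGFBR2 with TGFβ and for TGFBR3 without it. TGFBR1 was higher with siKLF10 under TGFβ in both lines, by label in A549. In Panc1 under TGFβ, TGFBR1 was 82.5, 99.6 and 99.99 CPM with siKLF10+TGFβ, above every TGFβ library (log2 fold change 0.47 ± 0.0849, adjusted p = 0.000119), and without TGFβ it was 68.4, 87.2 and 74.1 CPM with siKLF10, overlapping siCont (log2 fold change 0.12 ± 0.0854, adjusted p = 0.289). TGFBR2 was 384, 403 and 374 CPM with siKLF10, above every siCont library (log2 fold change 0.32 ± 0.0551, adjusted p = 9.74e-05), and 326, 339 and 354 CPM with siKLF10+TGFβ, overlapping TGFβ (log2 fold change −0.02 ± 0.0551, adjusted p = 0.798). Its interaction was negative (log2 difference −0.34 ± 0.0779, adjusted p = 0.012), and TGFβ lowered it after siKLF10 (log2 fold change −0.19 ± 0.0551, adjusted p = 0.00833). TGFBR3 was 7.02, 5.58 and 6.51 CPM with siKLF10, below every siCont library (log2 fold change −0.83 ± 0.150, adjusted p = 0.000181). Under TGFβ it was 1.98, 1.88 and 3.30 CPM with siKLF10+TGFβ, overlapping the TGFβ libraries (log2 fold change −0.65 ± 0.210, adjusted p = 0.0166), and that call was lost without TGFβ C (adjusted p = 0.0798), siKLF10+TGFβ A (0.0788) or siKLF10+TGFβ B (0.0856).

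In A549 under TGFβ, the libraries labelled siKLF10+TGFβ had 834 and 836 CPM of TGFBR1, above both TGFβ libraries (log2 fold change 0.79 ± 0.0721, adjusted p = 5.72e-08). Without TGFβ, TGFBR1 was 92.6 and 94.4 CPM in those labelled siKLF10 (log2 fold change 0.54 ± 0.0800, adjusted p = 5.31e-05). TGFBR2 was 282 and 263 CPM in those labelled siKLF10+TGFβ (log2 fold change 0.61 ± 0.0778, adjusted p = 4.25e-06) and 359 and 340.0 CPM in those labelled siKLF10 (log2 fold change 0.06 ± 0.0759, adjusted p = 0.641). Its A549 interaction was positive (log2 0.55 ± 0.109, adjusted p = 0.003): the fall with TGFβ was 1.28-fold in the libraries labelled siKLF10 and 1.88-fold in TGFβ over siCont. The interactions of TGFBR2 had opposite signs in Panc1 and A549, though their difference was not tested, and the siKLF10 effect under TGFβ was lower in Panc1 (difference −0.67 ± 0.0979, adjusted p = 5.71e-06). TGFBR3 was 5.36 and 4.60 CPM in libraries labelled siKLF10+TGFβ, uncalled (log2 fold change −0.22 ± 0.192, adjusted p = 0.431), and 43.2 and 44.6 CPM in those labelled siKLF10 (log2 fold change 0.34 ± 0.110, adjusted p = 0.0345). That last call was lost without siCont A or B, siKLF10 A or B, or TGFβ A or B (adjusted p = 0.0508 to 0.309). The siKLF10 effect on TGFBR3 without TGFβ differed between the lines (log2 difference −1.14 ± 0.184, adjusted p = 3.51e-05).

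BAMBI, the kinase-less pseudoreceptor, was near the detection floor in Panc1 and well above it in A549. Panc1 held 8, 9 and 4 reads in TGFβ libraries A, B and C, or 0.581, 0.719 and 0.272 CPM, and 30, 13 and 16 reads in siCont, or 2.21, 1.02 and 1.06 CPM (log2 fold change −1.46 ± 0.463, adjusted p = 0.0206). The call rested on few reads and was lost without siCont A (log2 −1.01, adjusted p = 0.156) or TGFβ C (log2 −1.13, adjusted p = 0.107). A549 held 49.0 and 44.2 CPM with TGFβ and 32.6 and 30.6 CPM with siCont (log2 fold change 0.56 ± 0.0991, adjusted p = 6.66e-05). BAMBI was lower in TGFβ over siCont in Panc1, on few reads, and higher in A549. The line difference was −1.94 ± 0.424 on the log2 scale (adjusted p = 0.00061). In siKLF10+TGFβ over siKLF10 in Panc1, BAMBI was not called (log2 fold change −0.06 ± 0.382, adjusted p = 0.913). With siKLF10+TGFβ, Panc1 held 29, 17 and 10 reads, or 1.91, 1.39 and 0.867 CPM, above every TGFβ library (log2 fold change 1.46 ± 0.468, adjusted p = 0.0156). This call was lost without TGFβ C (log2 1.12, adjusted p = 0.0857) or siKLF10+TGFβ A (log2 1.13, adjusted p = 0.0861). With siKLF10 alone it was 0.856, 1.36 and 2.20 CPM, overlapping siCont (adjusted p = 0.925). In A549 libraries labelled siKLF10+TGFβ it was 74.7 and 71.4 CPM (log2 fold change 0.64 ± 0.0934, adjusted p = 2.45e-05), and in those labelled siKLF10 39.4 and 40.4 CPM (log2 fold change 0.33 ± 0.0997, adjusted p = 0.0209). The last call was lost without siCont A or B or siKLF10 A or B (adjusted p = 0.0777 to 0.176).

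The latent binding proteins rose with TGFβ, LTBP2 and LTBP3 in both lines and LTBP1 in A549. LTBP2, an LTBP that binds fibrillin microfibrils and, unlike LTBP1 and LTBP3, does not bind latent TGFβ, was 638, 668 and 647 CPM in Panc1 TGFβ libraries, against 205, 226 and 233 CPM in siCont (log2 fold change 1.56 ± 0.0604, adjusted p = 4.4e-15). In A549 it was 216 and 212 CPM with TGFβ and 33.1 and 29.0 CPM with siCont (log2 fold change 2.78 ± 0.0959, adjusted p = 4.57e-16). The rise was 2.94-fold in Panc1 and 6.87-fold in A549, and the difference was −1.14 ± 0.112 on the log2 scale (adjusted p = 5.34e-10). LTBP3, which binds latent TGFβ, was 124, 129.7 and 125 CPM with TGFβ and 54.6, 52.9 and 59.3 CPM with siCont in Panc1 (log2 fold change 1.18 ± 0.0763, adjusted p = 3.17e-11). Its A549 values were 656 and 705 CPM with TGFβ and 146 and 147 CPM with siCont (log2 fold change 2.22 ± 0.0777, adjusted p = 6e-16), a larger rise than in Panc1 (difference −0.95 ± 0.112, adjusted p = 2.71e-08).

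LTBP1, the binding protein first isolated with latent TGFβ1, was not called in any Panc1 comparison. It was 74.98, 75.7 and 70.2 CPM with TGFβ and 70.7, 69.4 and 72.9 CPM with siCont, in overlapping ranges (log2 fold change 0.05 ± 0.0629, adjusted p = 0.596). The 95% interval of the log2 change was −0.08 to 0.18. A549 had 74.8 and 69.7 CPM with TGFβ and 41.7 and 40.2 CPM with siCont (log2 fold change 0.82 ± 0.0944, adjusted p = 2.26e-07), and the lines differed (log2 difference −0.69 ± 0.114, adjusted p = 1.29e-05). All 4 Panc1 groups fell between 69.4 and 79.4 CPM for LTBP1.

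LTBP2 was called lower in both Panc1 siKLF10 comparisons and in both comparisons of A549 libraries labelled siKLF10, as was no other member. In Panc1 it fell to 70.5, 78.5 and 74.0 CPM with siKLF10, against the siCont values of 205, 226 and 233 CPM (log2 fold change −1.57 ± 0.0632, adjusted p = 5.15e-14). Under TGFβ it was 329.7, 331 and 315 CPM with siKLF10+TGFβ, below every TGFβ library (log2 fold change −1.002 ± 0.0594, adjusted p = 2.39e-11). The fall was 2.98-fold without TGFβ and 2.003-fold with it, and neither the sign nor the call changed in any of 19 alternatives to each. Its Panc1 interaction was positive (log2 difference 0.57 ± 0.0858, adjusted p = 0.000336): TGFβ raised it 4.37-fold in siKLF10+TGFβ over siKLF10 and 2.94-fold in TGFβ over siCont. In A549 it was 119 and 129 CPM in libraries labelled siKLF10+TGFβ, below both TGFβ libraries (log2 fold change −0.78 ± 0.0861, adjusted p = 7.31e-07). Without TGFβ it was 23.5 and 27.2 CPM in those labelled siKLF10 (log2 fold change −0.31 ± 0.108, adjusted p = 0.0499). That call was lost without any 1 of siCont A or B, siKLF10 A or B, or TGFβ A or B (adjusted p = 0.0594 to 0.4). The A549 interaction was negative (log2 difference −0.47 ± 0.139, adjusted p = 0.0442) and was lost without any 1 of those 6 libraries (adjusted p = 0.0596 to 0.25) and with DESeq2 (0.0808). The fall without TGFβ was deeper in Panc1 than in A549 (log2 difference −1.24 ± 0.125, adjusted p = 2.01e-08). Whether the falls of LTBP2 follow from lower KLF10 was not tested.

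The stretches before the starts of LTBP2 and TGFBR3 are shown because these were the members lower with siKLF10 in Panc1 without TGFβ. They are RefSeq sequence of GRCh38.p14, LTBP2 at chr14:74612238-74612487 and TGFBR3 at chr1:91886152-91886401, both on the minus strand, 250 bases each and 5′ to 3′ on the gene's strand. Capitals again mark GC boxes.
LTBP2: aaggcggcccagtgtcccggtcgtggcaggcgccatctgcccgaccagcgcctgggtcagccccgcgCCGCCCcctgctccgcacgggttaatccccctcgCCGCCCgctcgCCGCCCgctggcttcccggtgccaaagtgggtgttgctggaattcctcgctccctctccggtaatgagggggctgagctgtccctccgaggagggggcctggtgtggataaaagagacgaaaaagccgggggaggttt
TGFBR3: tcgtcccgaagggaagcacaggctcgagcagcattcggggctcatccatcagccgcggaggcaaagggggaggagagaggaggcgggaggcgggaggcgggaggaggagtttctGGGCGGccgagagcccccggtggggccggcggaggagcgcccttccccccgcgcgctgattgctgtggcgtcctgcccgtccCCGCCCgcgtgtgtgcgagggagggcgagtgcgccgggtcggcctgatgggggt
LTBP2 held 3 GC boxes, which begin at positions −183, −149 and −138 from the start, and TGFBR3 held 2, at −136 and −54. Neither stretch held a SMAD half-site. TGFB1, with 6 GC boxes, was not called with siKLF10 in Panc1 without TGFβ. Nor were BAMBI and LTBP3, whose stretches also held GC boxes. TGFBR2, whose stretch held no GC box, was called higher there, and the remaining members without a GC box were not called. The part of GC boxes in these changes was not tested.

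LTBP3 and LTBP1 did not share the LTBP2 pattern with siKLF10. LTBP3 was 174, 149.8 and 142 CPM in Panc1 siKLF10+TGFβ libraries, above every TGFβ library (log2 fold change 0.30 ± 0.0727, adjusted p = 0.00218), and 63.6, 55.9 and 61.8 CPM with siKLF10 (log2 fold change 0.12 ± 0.0786, adjusted p = 0.257). In A549 it was 897 and 958 CPM in libraries labelled siKLF10+TGFβ (log2 fold change 0.45 ± 0.0732, adjusted p = 9.15e-05) and 164 and 170.0 CPM in those labelled siKLF10 (log2 fold change 0.19 ± 0.0770, adjusted p = 0.09). LTBP1 was 70.7, 75.8 and 76.6 CPM in Panc1 with siKLF10+TGFβ (log2 fold change 0.01 ± 0.0630, adjusted p = 0.882) and 75.6, 79.4 and 78.9 CPM with siKLF10, above every siCont library but not called (log2 fold change 0.14 ± 0.0629, adjusted p = 0.0997). In A549, LTBP1 was 99.9 and 112 CPM in libraries labelled siKLF10+TGFβ (log2 fold change 0.55 ± 0.0892, adjusted p = 8.14e-05) and 48.9 and 52.2 CPM in those labelled siKLF10 (log2 fold change 0.30 ± 0.0963, adjusted p = 0.0332). The last call was lost without siCont A or B, siKLF10 A or B, or TGFβ A or B (adjusted p = 0.0508 to 0.197). The siKLF10 effect under TGFβ on LTBP1 was lower in Panc1 than in A549 (log2 difference −0.57 ± 0.110, adjusted p = 0.000262).

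After siKLF10 the TGFβ response was read against siKLF10 alone, from the values already given. In Panc1 TGFB1 rose by 1.28 ± 0.0818, TGFB2 by 1.62 ± 0.0635 and TGFB3 by 1.16 ± 0.163 on the log2 scale. The same response was 2.13 ± 0.0637 for LTBP2 and 1.36 ± 0.0762 for LTBP3, and TGFBR3 fell by 1.44 ± 0.194. TGFBR1 was higher (log2 fold change 0.29 ± 0.0846, adjusted p = 0.00735), although its groups overlapped, and the call was lost without siKLF10 A (adjusted p = 0.0526) and with gene count totals alone (adjusted p = 0.062). BAMBI (log2 −0.06 ± 0.382) and LTBP1 (−0.07 ± 0.0630) were not called. In A549 libraries labelled siKLF10 the responses were 3.16 ± 0.0799 for TGFBR1, 2.47 ± 0.0784 for LTBP3, 2.31 ± 0.101 for LTBP2, 1.07 ± 0.0914 for LTBP1, 0.87 ± 0.0931 for TGFB1, 0.87 ± 0.0941 for BAMBI and 0.46 ± 0.0773 for TGFB2. TGFBR3 fell by 3.16 ± 0.139 and TGFBR2 by 0.36 ± 0.0762 there, and TGFB3 was not called (log2 fold change 0.44 ± 0.312, adjusted p = 0.244). Interactions of the members not named above were uncalled in both lines, among them LTBP3 in Panc1 (log2 0.18 ± 0.107, adjusted p = 0.389) and TGFBR3 in A549 (log2 −0.55 ± 0.221, adjusted p = 0.16).

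Differences between the lines were tested for 3 effects in the joint fit. The TGFβ effect differed for 9 of 10 members, 4 higher and 5 lower in Panc1, where 31.0% (higher 17.1%, lower 13.8%) of 15058 genes were called. The siKLF10 effect without TGFβ differed for 5 of 10, 1 higher and 4 lower, where 17.2% (higher 8.59%, lower 8.65%) of genes were called. Under TGFβ it differed for 4 of 10, all lower in Panc1, where 19.8% (higher 7.52%, lower 12.3%) of genes were called. Beside the members named above, the siKLF10 effect without TGFβ on TGFBR1 was lower in Panc1 (log2 difference −0.39 ± 0.129, adjusted p = 0.0318) and that on TGFBR2 higher (log2 difference 0.29 ± 0.0966, adjusted p = 0.0364). Under TGFβ the effect on TGFBR1 was lower in Panc1 (log2 difference −0.35 ± 0.121, adjusted p = 0.0388). These 3 calls did not hold under all alternatives. The TGFBR1 call without TGFβ was lost without A549 siCont A or B, A549 siKLF10 A or B, Panc1 siCont C, or Panc1 siKLF10 A or C (adjusted p = 0.0716 to 0.111). It was also lost with gene count totals alone (0.0571). The TGFBR2 call without TGFβ was lost without A549 siCont A or B, A549 siKLF10 B, Panc1 siCont A or B, Panc1 siKLF10 B or Panc1 TGFβ A (adjusted p = 0.0517 to 0.175). It was also lost with DESeq2 size factors (0.0563) and with no filter (0.148). The TGFBR1 call under TGFβ was lost without A549 TGFβ B, A549 siKLF10+TGFβ B, Panc1 TGFβ A or C, or Panc1 siKLF10+TGFβ A (adjusted p = 0.0644 to 0.178). It was also lost with DESeq2 (0.0758), with DESeq2 size factors (0.0639) and with gene count totals alone (0.0784). The TGFB2 call under TGFβ was lost without A549 TGFβ A or B, A549 siKLF10+TGFβ B, Panc1 TGFβ A or C, Panc1 siKLF10 C or Panc1 siKLF10+TGFβ A (adjusted p = 0.0529 to 0.147). It was also lost with DESeq2 (0.0712), DESeq2 size factors (0.0736), gene count totals alone (0.0875), no filter (0.106) and a replicate block (0.0523).

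The make-up of each family was described by group, on the scale of CPM per kb. The ligand sum was 152 ± 0.286 with siKLF10+TGFβ, 106 ± 0.726 with TGFβ, 55.3 ± 2.61 with siKLF10 and 55.5 ± 1.39 CPM per kb with siCont in Panc1 (SD, n = 3). In A549 the same sum was 125 ± 12.1 in libraries labelled siKLF10+TGFβ, 86.5 ± 0.768 with TGFβ, 74.9 ± 4.15 in those labelled siKLF10 and 59.5 ± 2.68 CPM per kb with siCont (SD, n = 2). TGFB2 made up 58.5% of the ligand sum with TGFβ and 52.6% with siCont in Panc1, and 24.4% with TGFβ and 30.9% with siCont in A549. Its share was thus higher with TGFβ in Panc1 and lower in A549. Among the 3 receptors, TGFBR1 made up 65.5% of the sum in A549 TGFβ libraries (range 65.2 to 65.8%) and 11.3% in siCont (11.2 to 11.4%). In Panc1 its share was 12.2% with TGFβ and 13.6% with siCont, and TGFBR2 held 87.2% with TGFβ and 84.3% with siCont. Betaglycan stood at 0.721% with TGFβ and 5.74% with siCont in A549. LTBP2 held 28.8% of the sum of LTBP1 to LTBP3 in Panc1 siKLF10 libraries (27.5 to 30.4%) and 56.8% in siCont (55.2 to 58.2%). LTBP3 held 75.5% of it in A549 TGFβ libraries and 70.9% in siCont. LTBP4, another latent binding protein gene and no member, was not in this sum, and stood at 366 ± 35.4 CPM with TGFβ and 88.9 ± 1.05 CPM with siCont in A549, not per kb. Shares were described and not tested.

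**Figure D4:**
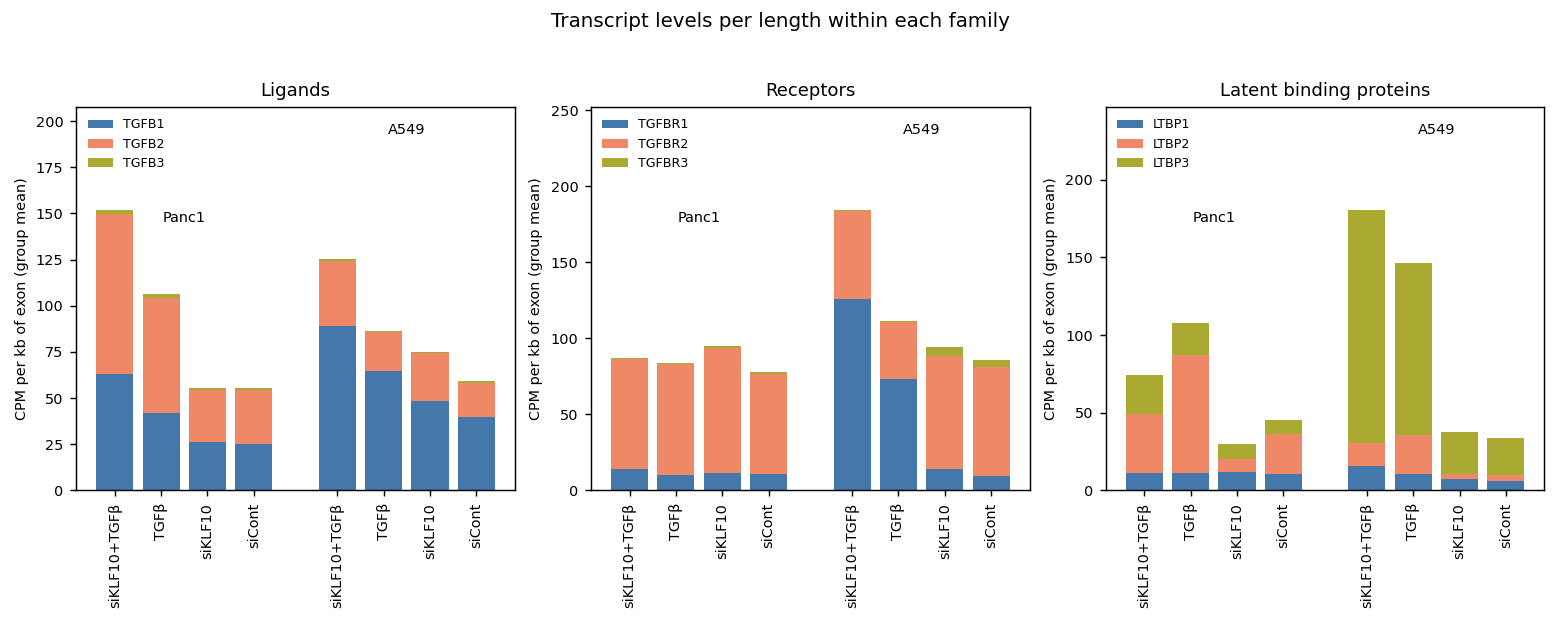
Stacked group means of the 3 ligand, 3 receptor and 3 latent binding protein genes, in CPM per kb of merged exon, on axes that start at 0, with Panc1 groups on the left of each panel and A549 groups on the right. In A549 the TGFBR1 part of the receptor bar is 65.5% with TGFβ and 11.3% with siCont, and LTBP3 makes up most of the latent binding protein bars, which hold LTBP1 to LTBP3.

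Beyond the members, 51 genes of the same pathway were examined by list, chosen with earlier results of these data known. Of these, 43 were tested in Panc1 and 48 in A549. In TGFβ over siCont 25 rose and 3 fell in Panc1, where 29.0% (higher 14.0%, lower 15.1%) of all genes were called, and 27 rose and 7 fell in A549, where 47.7% (higher 24.2%, lower 23.5%) were. Of the 16 genes of latency and activation, 10 of 11 tested rose and 1 fell in Panc1, with a median log2 change of 1.13, and 11 of 16 rose and 2 fell in A549, with a median of 1.10. The metalloproteinases MMP2 and MMP9, which can release latent TGFβ, rose by 6.35 ± 0.113 and 4.98 ± 0.251 in A549, and the integrin subunit ITGB8, a partner in the integrin that activates TGFβ, fell by 0.92 ± 0.205 in Panc1. The target JUNB, an AP-1 subunit (2.49 ± 0.123 in Panc1), and PMEPA1, a feedback inhibitor (2.48 ± 0.0592 in Panc1), were among the largest rises. In A549 the largest falls were of LRRC32, which presents latent TGFβ at the cell surface (−1.76 ± 0.405), the integrin subunit ITGB5 (−0.60 ± 0.0864) and the inhibitory SMAD6 (−0.49 ± 0.0934). In Panc1 SMAD3 (−0.42 ± 0.0523) and PPP1R15A (−0.32 ± 0.0807) also fell.

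With siKLF10, 13 pathway genes rose and 12 fell in Panc1 without TGFβ, where 35.6% (higher 17.3%, lower 18.3%) of all genes were called, and 18 rose and 10 fell with it, where 41.7% (higher 21.1%, lower 20.6%) were. In the A549 libraries labelled siKLF10, 10 rose and 6 fell without TGFβ, where 19.5% (higher 9.57%, lower 9.96%) of all genes were called, and 11 rose and 11 fell with it, where 28.3% (higher 14.4%, lower 13.9%) were. ITGB5, whose product pairs with the αv integrin subunit, had the largest fall in Panc1 both without TGFβ (−2.15 ± 0.0625) and with it (−2.59 ± 0.0612), and in A549 with it (−1.81 ± 0.0913). It stood at 48.3 ± 1.08 CPM with siKLF10 and 214 ± 13.4 CPM with siCont in Panc1. Without TGFβ, ITGB6 fell furthest in A549 (−2.09 ± 0.338). In Panc1 the largest rises were of the inhibitory SMAD6 (0.70 ± 0.0915) and the activin receptor ACVR2A (0.60 ± 0.148) without TGFβ, and of THBS1, whose product can activate latent TGFβ (1.54 ± 0.0847), and the matrix proteoglycan BGN (1.32 ± 0.408) with it. In A549 the fibrillin gene FBN2 rose in both comparisons (1.004 ± 0.0858 without TGFβ, 0.86 ± 0.0847 with it), MMP2 rose without TGFβ (1.02 ± 0.139) and the activin receptor ACVR2B with it (0.91 ± 0.150). In the interaction 3 of 43 pathway genes were positive and 1 negative in Panc1, THBS1 (0.996 ± 0.120), CTGF (0.66 ± 0.109) and ACVR1 (0.44 ± 0.109) against ITGB5 (−0.45 ± 0.0850), where 4.42% (higher 2.56%, lower 1.86%) of all genes were called. In A549 1 of 48 was positive, ITGB6 (2.05 ± 0.373), and 5 were negative, with SMAD3 (−1.02 ± 0.100) the largest, where 6.49% (higher 3.26%, lower 3.23%) of all genes were called.

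The genes with profiles most like each member were listed by Pearson's r of log2 CPM centred within each line, over 20 libraries, from 9905 genes with at least 5 CPM in both lines. Libraries of a group share their treatment, so the 20 points are not independent and r is a description. Such an r can rest mostly on a single line. Between the members TGFBR1 and LTBP1 it was 0.950 over both lines, 0.964 in A549 and 0.407 in Panc1. LTBP2 was most like CYP26B1 (r = 0.984), RAI14 (r = 0.970) and SLC25A37 (r = 0.961). LTBP3 was most like PODXL (r = 0.995), EPHB2 (r = 0.990) and FRMD6 (r = 0.990), and TGFBR1 most like RHOU (r = 0.983), CORO2B (r = 0.982) and TLN2 (r = 0.981). TGFB1 was most like RHOB (r = 0.963), JAG1 (r = 0.963) and KCNG1 (r = 0.959), TGFB2 most like PDGFA (r = 0.985), OLFM2 (r = 0.975) and SIK1 (r = 0.969), and TGFB3 most like PDZD8 (r = 0.947), PRPS1 (r = 0.940) and DOCK9 (r = 0.934). TGFBR2 had WWTR1 (r = 0.911), RBBP4 (r = 0.908) and SEMA3A (r = 0.905), TGFBR3 had SSBP2 (r = 0.978) and GDF15 (r = 0.975), and LTBP1 had ROBO1 (r = 0.982), ITPR2 (r = 0.966) and KCNK6 (r = 0.965). BAMBI, with few reads in Panc1, reached lower values with ELMOD3 (r = 0.782), SLC7A5 (r = 0.768) and ATP6V0D1 (r = 0.761).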

How the data were processed

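Poly(A) RNA of 12 Panc1 and 8 A549 libraries was sequenced with a directional kit, per the labels' protocols. The authors deposited raw read counts per gene for each library. The submitters' processing notes name TopHat, Bowtie2, HTSeq 0.6.0 and DESeq2 with build hg19, with no roles or order. The authors also deposited tables of log2 fold change, or in 1 case of linear fold ratio, each with an adjusted p-value column, per the file headers. The observations use them. The 5 summary lines of each count table were left out of gene totals.

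Counts were filtered with filterByExpr (minimum count 10, minimum total 15), scaled by TMM and tested with edgeR 4.0.16 (limma 3.58.1, R 4.3.3), quasi-likelihood with robust fits and no replicate block. Each line was fitted with its 4 groups, and line differences were fitted over all 20 libraries. Benjamini-Hochberg adjustment ran over all genes tested, and the threshold was 0.05. The code was tested on simulated data. Count tables of replicates were compared, and no pair agreed within sampling noise (chi-square per degree of freedom 2.06 or more).

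The members and gene lists were chosen with earlier results of these data known. All 10 members are named, with at most 3 called pathway genes per direction and comparison and up to 3 genes most alike. Some genes that this rule admits are not reported here. Alternatives were other scaling, DESeq2 1.42.0, no filter or a stricter one (mean of 1 CPM), a replicate block and leaving out each library. Lengths and overlaps come from GENCODE 29 on GRCh38, since no hg19 annotation was used here, and sequences from RefSeq. Floors of 3 counts cover counting error only. The precision of A549 rests on 2 libraries a group.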

Additional observations from a re-analysis of the deposited data

Results flagged for a closer look

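Responses that differed between groups by a test of the difference itself (edgeR's quasi-likelihood test, Benjamini-Hochberg adjusted p under 0.05) are given as log2 differences. The interaction (siKLF10+TGFβ over siKLF10 minus TGFβ over siCont) was 0.55 for TGFB1, 0.52 for TGFB2, 0.57 for LTBP2 and −0.34 for TGFBR2 in Panc1, where 4.42% of genes were called. In A549, by label, it was 0.55 for TGFBR2 and −0.47 for LTBP2, where 6.49% of genes were called. The LTBP2 call in A549 was lost without any 1 of siCont A or B, siKLF10 A or B, or TGFβ A or B (adjusted p = 0.0596 to 0.25) and with DESeq2 (0.0808). The difference between the lines' interactions was not tested.

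The TGFβ response in Panc1 minus that in A549 was positive for TGFB2 (0.98), TGFB3 (1.50), TGFBR2 (1.15) and TGFBR3 (1.07). It was negative for TGFBR1 (−2.89), BAMBI (−1.94), LTBP1 (−0.69), LTBP2 (−1.14) and LTBP3 (−0.95).

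The siKLF10 effect without TGFβ, Panc1 minus A549, was −0.49 for TGFB2, −0.39 for TGFBR1, 0.29 for TGFBR2, −1.14 for TGFBR3 and −1.24 for LTBP2. With TGFβ it was −0.29 for TGFB2, −0.35 for TGFBR1, −0.67 for TGFBR2 and −0.57 for LTBP1. KLF10 was called lower with siKLF10 in Panc1 and not in the A549 libraries labelled siKLF10 without TGFβ, and the part of this in the siKLF10 differences was not tested.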

How the results depend on the processing

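Over 154 results, 2992 values were computed under alternatives, of which 2840 kept their direction and side of the threshold, 111 lost a call, 12 gained one and 29 changed sign. Of 101 called results, 83 kept the call under every alternative tried and 0 changed sign. The 13 results that changed sign were all uncalled.

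Among counts of members called, the A549 siKLF10 comparison with siCont had 7 and gave 2 with DESeq2 and 2 to 8 with 1 library left out. The A549 interaction had 2 and gave 1 with DESeq2 and 1 to 5 with 1 library left out. The line difference of the siKLF10 effect under TGFβ had 4 and gave 2 with DESeq2 size factors, 2 with gene count totals alone, 2 with DESeq2, and 2 to 5 with 1 library left out (2 without Panc1 TGFβ A or C, Panc1 siKLF10+TGFβ A, A549 TGFβ B or A549 siKLF10+TGFβ B). Without TGFβ that count was 5 and gave 3 to 5 with 1 library left out (3 without A549 siCont A or B or siKLF10 B). For all of these the cause was not tested.

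Residuals of like-lettered libraries of different groups correlated at −0.266 to 0.454 in Panc1 (median −0.0205). Those of unlike-lettered libraries correlated at −0.449 to 0.333 (median 0.00255). In A549 the like-lettered values were −0.0257 to 0.171. With 2 libraries a group, the unlike-lettered values there are the same with the sign reversed and add nothing. Whether the letters mark a shared batch cannot be told from these values. With the letter as a replicate block, 7 members were called with TGFβ in Panc1, against 8 without the block (the TGFBR2 call was lost, adjusted p = 0.052), and 3 in the line difference of the siKLF10 effect under TGFβ, against 4. The other counts of members called were the same with the block.

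The sign changes were as follows, with gene count totals alone or, for ranges, 1 library left out. With siKLF10 against siCont in Panc1, TGFB2 was 0.0203 with totals alone, TGFB3 was 0.0610 with totals alone and −0.102 to 0.0718 over libraries left out, BAMBI was −0.347 to 0.504 and TGFB1 −0.0595 to 0.126. With siKLF10+TGFβ against TGFβ in Panc1, LTBP1 was −0.0221 to 0.0530 and TGFBR2 −0.0552 to 0.0120. BAMBI with siKLF10+TGFβ against siKLF10 in Panc1 was −0.385 to 0.340, and the Panc1 interaction of TGFBR3 was −0.103 to 0.315. Between the lines, the siKLF10 effect on LTBP3 was 0.00750 with totals alone and −0.0833 to 0.00695 over libraries left out, and on BAMBI −0.655 to 0.197. Under TGFβ it was −0.0888 to 0.118 for TGFB3 and −0.0708 to 0.247 for TGFB1. The siCont level of TGFB3 differed by 0.0532 without a filter and by −0.0987 to 0.0755 over libraries left out.

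A549 has 2 libraries a group, so leaving 1 out assumes that the lone library varies like the other groups. Few reads limited BAMBI in Panc1 and TGFB3 in both lines.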

Other observations

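The deposited comparison tables were set beside the values above. In 5 of the authors' deposited tables the log2 fold changes correlated with these fits across genes at r = 0.846 to 0.952, a description over genes that are not independent replicates, and 10 of 10 members had the same sign. The authors' deposited table for A549 with TGFβ against the control gave r = 0.153 and the same sign for 7 of 10 members. In that authors' deposited table LTBP2 was 0.52, TGFBR1 −0.22, TGFBR2 0.58 and TGFBR3 0.97 on the log2 scale. The fits to the counts gave 2.78 ± 0.0959, 2.91 ± 0.0798, −0.91 ± 0.0779 and −2.61 ± 0.149 for the same genes. The cause of this disagreement was not tested, and no result above uses the deposited tables.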
